A study of Mus musculus with 12 samples.

Results

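The lysosome and V-ATPase genes of mouse pluripotent cells were described here as a set of 39 genes, chosen by symbol from the 57180 genes of the deposited tables. The set holds 15 subunits of the vacuolar proton pump, 18 soluble enzymes and cofactors that work inside the lysosome, 5 proteins of the lysosomal membrane, and *Gpnmb*, a glycoprotein of melanosomes and lysosomes. All 39 genes were found in the tables, all had enough counts to be tested, and the mean level of each reached 1 CPM (counts scaled by library size to a common total, here with TMM factors).

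Lysosomes are acidic organelles in which proteins, glycans and lipids are broken down and from which the products are returned to the cytosol. The V-ATPase acidifies them: its cytosolic V1 sector hydrolyses ATP and drives a ring in the membrane-bound V0 sector, which carries protons into the lumen. The lysosomal surface is also where the kinase complex mTORC1 is switched on by nutrients, and TFEB, TFE3 and MITF, the MiT transcription factors, raise transcription of many lysosomal genes through an E-box element when they enter the nucleus. In mouse embryonic stem cells (ESCs), TFE3 and its cytosolic retention by FLCN are known for their part in the exit from naive pluripotency.

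RNA was sequenced from 12 libraries of E14-DOX-CRISPRi cells, a male mouse ESC line in which doxycycline (DOX) induces dCas9 fused to repressor domains, which guide RNAs bring to chosen start sites to reduce transcription there. The Neg line carries scramble guides, and the 3×KD line carries guides against *Pcx*, *Me1* and *Me2*, which encode enzymes that pass carbon between pyruvate, oxaloacetate and malate. Each line was sequenced as ESCs in 2iLIF medium and as epiblast-like cells (EpiLCs) at day 2 in FAX medium (Activin A, Fgf2 and the tankyrase inhibitor XAV939), with 3 libraries in each of the 4 groups. Both lines derive from 1 picked clone and carry the same inducible repressor, and each was then transfected and selected for its own guides. With 1 line of each kind, the knockdown and other differences between the lines cannot be told apart. The methods describe culture with DMSO or DOX, harvested in parallel, while the group labels do not name DOX. A figure legend of the study gives DOX treatment for the Neg and 3×KD ESCs and EpiLCs whose gene expression it shows. The study's methods describe experiments in general as biological triplicates, and the labels do not say how the 3 libraries of a group were cultured, so p-values measure the spread between these libraries. A label field names ESCs for every Neg library and EpiLCs for every 3×KD library, while the titles name both states for both lines and were followed.

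The libraries held between 11221023 and 19652197 estimated counts. *Pcx*, *Me1* and *Me2* were called lower in 3×KD in both states, with log2 fold changes between -1.14 and -0.89. In each line EpiLCs had all 10 naive pluripotency markers called lower and all 8 formative markers called higher than ESCs, as the titles have it. A gene was called where edgeR's quasi-likelihood test gave a Benjamini-Hochberg adjusted p under 0.01 over the 25446 genes tested and the log2 fold change was above 0.58 in size. Comparisons that use the same libraries, such as 3×KD against Neg in ESCs and EpiLCs against ESCs in Neg, are not independent of each other, and their values are given side by side only.

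The E-box with the letters TCACGTG, which lies within the element that MiT factors bind, was looked for on both strands between 250 bases before and 50 bases after the start site of each gene, in GRCm39 with GENCODE vM39. It was found at 10 of the 39 genes (25.6%) and at 853 of the 17041 protein-coding genes tested (5.01%). The shorter core CACGTG, which the longer one contains, was found at 12 of the 39 (30.8%) and at 1561 of the 17041 (9.16%). In 11 of these 12 genes a core lay within 60 bases of the start site, and *Atp6v1a* was the exception, with a core 249 bases before it. The windows below show the promoter E-boxes of 8 of the 10 genes with TCACGTG, spanning pump, membrane proteins, glycosidases and proteases. *Atp6v0e* and *Atp6v1h* also held it and are not shown. Capitals mark TCACGTG or its reverse complement CACGTGA (TCACGTGA where both overlap), or the edge of a neighbouring copy cut by the window.
Lamp1, membrane glycoprotein, chr8:13209105-13209134, plus strand: GgtccagcgccCACGTGAtgccgactggCA
Mcoln1, calcium channel, chr8:3550437-3550465, plus strand: gtcgcgcttgTCACGTGttcagttcaggc
Atp6v0b, proton pump, chr4:117744544-117744573, minus strand: tgcgcgggggTCACGTGgggtcggcgcaTC
Glb1, glycosidase, chr9:114230087-114230115, plus strand: tgcttctgagTCACGTGgcctacagaggc
Gla, glycosidase, chrX:133501931-133501959, minus strand: gagatctcggTCACGTGAgcaactctcgg
Naglu, glycosidase, chr11:100960836-100960864, plus strand: aaccttcaggTCACGTGgcccgaggtcgg
Ctsb, protease, chr14:63359880-63359908, plus strand: cggtcaagcaTCACGTGAcgaatcagccc
Ctsd, protease, chr7:141941792-141941820, minus strand: cttccttccccCACGTGAcctgtatccag
Of these, *Lamp1* held 4 E-box cores and *Mcoln1*, *Atp6v0b* and *Gla* held 2 each. A match is a description of the letters in this window and does not show that a factor binds there.

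Compared per length, the pump subunits were the most abundant of the set. On the mean TPM (transcript abundance per length) of all 12 libraries, 8 of the 9 highest genes were V-ATPase subunits. *Atp6v0c*, the subunit that builds most of the proton-carrying ring, was highest at 131.9 TPM, ahead of *Atp6v1e1* in the peripheral stalk at 90.1 TPM. *Lamp1*, a heavily glycosylated protein that lines the lysosomal membrane, stood among them at 75.1 TPM, and the catalytic subunit *Atp6v1a* reached 69.1 TPM. Of the soluble enzymes, the aspartic protease *Ctsd* was highest at 48.9 TPM. The median of the 39 genes was 27.6 TPM, and *Ctsh*, an aminopeptidase, at 0.963 TPM and *Naglu*, which degrades heparan sulfate, at 0.725 TPM were lowest. Processed pseudogene copies of *Atp6v0c* are annotated in mouse, and how reads were split among such copies is uncertain. 33 of the 39 genes had at least 100 counts in every library, and values of the other 6 rest on fewer.

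Lysosome and V-ATPase genes were lower in EpiLCs than in ESCs. In Neg cells 22 of the 39 were called lower and none was called higher in EpiLCs, and in 3×KD cells 16 were called lower and none higher. In Neg this is 56.4% of the set, beside 11.0% of all genes tested called lower and 16.7% of the 15032 genes whose mean reached 1 CPM. In 3×KD it is 41.0% of the set, beside 9.32% of all genes tested and 14.3% of genes at 1 CPM or more. The share called higher was 9.78% of all genes in Neg and 9.42% in 3×KD. The median log2 fold change of the set was -0.64 in Neg and -0.47 in 3×KD, while that of all genes tested was 0.01 in each. By the adjusted p alone, 33 genes in Neg and 30 in 3×KD were lower and none was higher, beside 18.2% and 17.9% of all genes lower and 17.5% and 15.9% higher. Of the 15032 genes at 1 CPM or more, 4346 in Neg and 4327 in 3×KD were lower by it, and 4051 and 3702 higher. In bulk RNA, fewer cells with high levels and less RNA per cell cannot be told apart.

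The median fall was larger for the enzymes of the lumen and the membrane proteins than for the pump. The summed level of the 18 soluble hydrolases and cofactors was 907.8 ± 3.9 CPM (SD, n = 3) in Neg ESCs and 480.4 ± 9.16 CPM (n = 3) in Neg EpiLCs, and their median log2 fold change was -0.72, with 11 called lower. The 15 V-ATPase subunits together went from 1680.0 ± 30.7 to 1184.6 ± 9.56 CPM (n = 3 each), with a median of -0.44 and 6 called lower. The 5 membrane proteins went from 507.5 ± 7.11 to 273.8 ± 4.49 CPM (n = 3 each), with a median of -0.85 and 4 called lower. Summed CPM gives longer transcripts more weight. Summed TPM of the pump overlapped, at 767.4 to 1085.9 in Neg ESCs and 686.1 to 775.8 in Neg EpiLCs. For the soluble genes and the membrane proteins it did not overlap in Neg. In 3×KD cells the medians were -0.48 for the soluble group with 8 called lower, -0.41 for the pump with 4, and -0.60 for the membrane proteins with 3. The difference between these role groups was described and not tested.

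**Figure D1:**
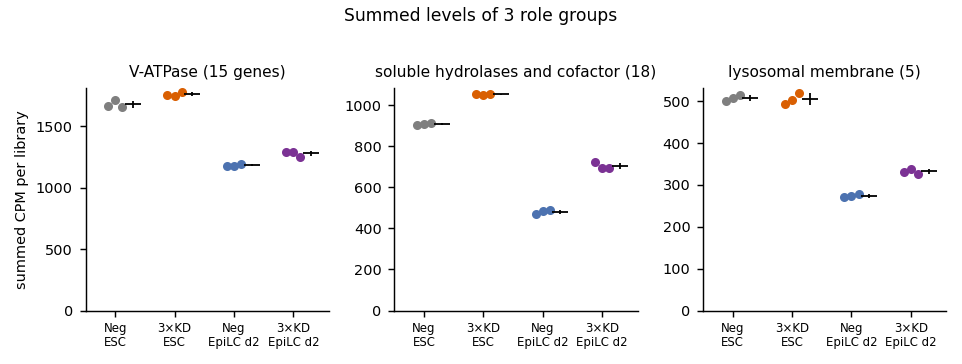
Summed CPM (TMM-normalized) of the V-ATPase subunits, the soluble hydrolases with their cofactor, and the lysosomal membrane proteins; each point is 1 library and the bar is the mean ± SD of the 3 libraries of a group. EpiLC libraries lie below the ESC libraries in all 3 panels, and the soluble hydrolases of 3×KD EpiLCs (694.3 to 723.0 CPM) lie above those of Neg EpiLCs (470.1 to 487.7 CPM). In summed TPM, not shown, the pump's ESC and EpiLC libraries overlapped in both lines, as did the soluble hydrolases of Neg and 3×KD ESCs.

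The largest fall was that of *Gpnmb* (chr6:49013426-49047863). It stood at 52.2, 49.2 and 55.5 CPM in Neg ESCs and at 0.308, 0.201 and 0.442 CPM in Neg EpiLCs, the latter from 15 counts over the 3 libraries. The 3 ESC libraries lay far above every EpiLC library, and the change was -7.32 (SE 0.219, adjusted p = 4.8e-14, edgeR's quasi-likelihood test, Benjamini-Hochberg adjusted), or 159.9-fold lower. In 3×KD it fell from 4.85, 3.96 and 3.98 CPM to 1.49, 0.512 and 0.687 CPM, a log2 fold change of -2.24 (SE 0.236, adjusted p = 6.4e-07, edgeR).

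*Hexa* (chr9:59446818-59474021), the alpha subunit of the hexosaminidase that degrades GM2 ganglioside, was next in Neg. It went from 115.1, 112.7 and 108.5 CPM in Neg ESCs to 31.7, 33.3 and 32.6 CPM in Neg EpiLCs, with no overlap between the groups. The log2 fold change was -1.78 (SE 0.0415, adjusted p = 1.9e-15, edgeR) in Neg and -0.97 (SE 0.04, adjusted p = 4.6e-12, edgeR) in 3×KD, where the levels were 92.3, 94.9 and 98.2 CPM against 49.0, 48.1 and 48.5 CPM. *Ctsc*, the dipeptidyl peptidase that activates granule proteases, went from 16.8, 18.2 and 18.2 CPM to 5.42, 5.17 and 5.44 CPM in Neg. Every EpiLC library was below every ESC library, and the change was -1.73 (SE 0.0911, adjusted p = 8e-11, edgeR). *Cd63*, a tetraspanin of late endosomes and lysosomes, went from 61.1, 61.3 and 64.0 CPM to 19.0, 19.8 and 19.6 CPM in Neg, and from 68.6, 66.6 and 69.5 CPM to 27.4, 30.2 and 28.5 CPM in 3×KD. Neither line had overlapping libraries, with log2 fold changes of -1.68 (SE 0.0503, adjusted p = 5e-14, edgeR) and -1.25 (SE 0.0479, adjusted p = 1.8e-12, edgeR).

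In 3×KD the other large falls were those of 2 cathepsins. *Ctsb*, a cysteine protease, went from 119.7, 121.3 and 116.2 CPM in 3×KD ESCs to 56.5, 51.9 and 54.1 CPM in 3×KD EpiLCs. *Ctsa*, the serine carboxypeptidase that also protects the galactosidase and sialidase, went from 81.5, 81.6 and 84.2 CPM to 38.0, 42.3 and 34.0 CPM. All EpiLC libraries were below all ESC libraries for both genes, with log2 fold changes of -1.13 (SE 0.0589, adjusted p = 9e-11, edgeR) for *Ctsb* and -1.11 (SE 0.0601, adjusted p = 1.5e-10, edgeR) for *Ctsa*. In Neg the same genes changed by -1.24 and -1.64.

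Among the other glycosidases called lower in both lines, *Glb1*, the beta-galactosidase, changed by -1.61 in Neg and -0.97 in 3×KD. *Gla*, the alpha-galactosidase, changed by -0.89 and -0.63, and *Neu1*, the lysosomal sialidase, by -0.76 and -0.78. *Lamp2*, which takes part in chaperone-mediated autophagy, changed by -1.32 and -1.05, and *Scarb2*, a receptor that sorts an enzyme to the lysosome, by -0.64 and -0.60. *Asah1*, the acid ceramidase, changed by -0.85 and -0.64. Of the pump, *Atp6v0b* in the ring changed by -1.08 and -0.81, *Atp6v1a* by -0.74 and -0.76, *Atp6v1g1* in the stalk by -0.79 and -0.69, and the accessory subunit *Atp6ap1* by -0.64 and -0.71. With offsets for transcript length, *Atp6ap1* lost its call in both lines (-0.12, adjusted p = 0.76 in Neg, edgeR) and so did *Neu1* (-0.74, adjusted p = 0.024 in Neg, edgeR), and *Gla* lost its call in 3×KD (-0.62, adjusted p = 0.16, edgeR), as it did with upper-quartile factors (-0.56). *Scarb2* lay near the fold limit and was not called in Neg without Neg EpiLCs replicate 1 (-0.54) or in 3×KD without 3×KD EpiLCs replicate 1 (-0.578) or 3 (-0.58).

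A further 6 genes were called lower in Neg and not in 3×KD. They were *Lamp1* at -0.85, *Tpp1* (a tripeptidyl peptidase) at -0.79, *Psap* (the precursor of the saposins that present lipids to hydrolases) at -0.67, *Ctsl* (a cysteine protease) at -0.63, *Atp6v1d* (the rotor shaft) at -0.62 and *Atp6v0c* at -0.60. The last 2 were near the fold limit, and without Neg EpiLCs replicate 2, for example, they were at -0.57 and -0.52 and were not called. All 6 also had an adjusted p under 0.01 in 3×KD, with log2 fold changes between -0.54 (*Psap*) and -0.41 (*Tpp1*). Called lower in both lines were 16 genes (41.0%), beside 7.19% of all genes tested and 11.3% of genes at 1 CPM or more. A further 11 genes were lower in Neg by the adjusted p but under the fold limit, 8 of them pump subunits and the others *Mcoln1*, *Ctsd* and *Ctsz*. The remaining 6 did not pass in Neg. *Ctsh* was at -0.64 (adjusted p = 0.15, edgeR) from few counts. *Lipa* (lysosomal acid lipase), *Naglu*, *Ctsf* (a cysteine protease) and *Atp6v0e* (a small V0 subunit) had log2 fold changes between -0.16 and 0.16 in the 2 lines with overlapping libraries in Neg. *Gusb*, the beta-glucuronidase, was at -0.22 in Neg (adjusted p = 0.03, edgeR) and 0.24 in 3×KD (adjusted p = 0.011, edgeR). *Mcoln1*, a calcium channel of the lysosomal membrane that MiT factors are known to raise, stood at 43.1, 46.9 and 48.5 CPM in Neg ESCs and 38.2, 40.2 and 38.9 CPM in Neg EpiLCs. These groups did not overlap, but the change of -0.24 (SE 0.0643, adjusted p = 0.0049, edgeR) was under the fold limit.

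**Figure D2:**
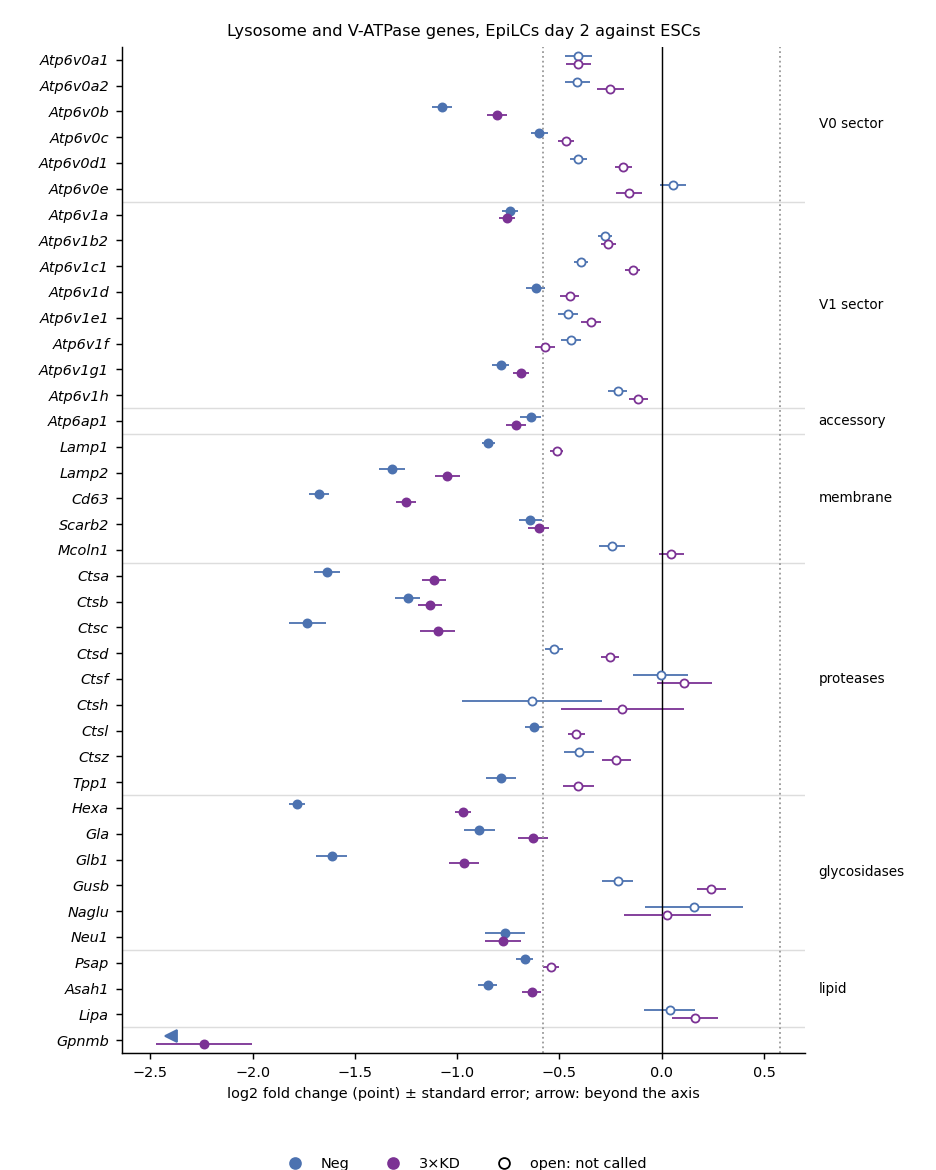
Log2 fold change of each of the 39 genes in EpiLCs day 2 against ESCs (point, with its standard error), in Neg (blue) and 3×KD (purple), ordered by role; filled points were called, dotted lines mark the fold limit of 0.58 and the arrow marks *Gpnmb* in Neg at -7.32, beyond the axis. Nearly all points lie left of 0, furthest for *Gpnmb* and then, in Neg, for *Hexa*, *Ctsc*, *Cd63*, *Ctsa* and *Glb1*.

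In 3×KD ESCs some lysosomal enzymes, a membrane receptor and the catalytic pump subunit were higher than in Neg ESCs, and *Gpnmb* and 1 other subunit of the pump were called lower. Of the 39 genes, 6 were called higher (15.4%) and 2 lower (5.13%). Of all genes tested 8.5% were called higher and 6.76% lower, and of genes at 1 CPM or more 13.1% and 10.5%, so the set's share was near that of other expressed genes and the count is not a result about the set. The median log2 fold change was 0.13, beside 0.03 for all genes tested. By the adjusted p alone, 17 were higher (43.6%) and 10 lower (25.6%), beside 15.6% and 16.0% of all genes tested. Of the 15032 genes at 1 CPM or more, 3780 were higher and 3928 lower by it, so the share lower was near that of other expressed genes. Of the 18 soluble genes 4 were called higher and none lower, with a median of 0.31, and their sum went from 907.8 ± 3.9 to 1053.2 ± 2.81 CPM (SD, n = 3 each). Summed TPM overlapped for these genes, at 319.4 to 427.6 in Neg ESCs and 339.7 to 412.1 in 3×KD ESCs. The pump's median was -0.06, with 1 subunit called in each direction and, by the adjusted p alone, 5 of 15 higher and 5 lower.

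*Neu1* (chr17:35150165-35156292), which removes sialic acid from glycoproteins, rose most. It stood at 18.7, 22.2 and 19.4 CPM in Neg ESCs and 42.6, 41.3 and 37.8 CPM in 3×KD ESCs. The groups were far apart, with a log2 fold change of 1.01 (SE 0.0889, adjusted p = 9.6e-08, edgeR), or 2.02-fold. *Scarb2* (chr5:92589169-92654692) went from 35.0, 36.1 and 35.2 CPM to 61.7, 62.1 and 61.1 CPM. Within each group its libraries lay within about 1 CPM of each other, and the change was 0.80 (SE 0.0531, adjusted p = 3.9e-09, edgeR). *Atp6v1a* (chr16:43887852-43960076), which holds the site of ATP hydrolysis, went from 293.1, 300.4 and 286.3 CPM to 462.4, 466.6 and 485.8 CPM. No library of the 2 groups overlapped, and the change was 0.69 (SE 0.0383, adjusted p = 5e-10, edgeR), or 1.61-fold. The median log2 fold change of the 454 genes at 1 CPM or more on chromosome 16 was 0.30 in 3×KD against Neg in both states, and that of every other chromosome lay between -0.05 and 0.06. How much of the *Atp6v1a* difference goes with its chromosome was not tested.

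*Naglu* had 1.77, 1.31 and 1.89 CPM in Neg ESCs and 2.33, 3.41 and 3.07 CPM in 3×KD ESCs, from 19 to 56 counts per library over the series. Its 3×KD libraries were all above its Neg libraries, but the call at 0.82 (SE 0.23, adjusted p = 0.0085, edgeR) was lost under 11 of the alternatives, among them DESeq2 (adjusted p = 0.027) and leaving out any 1 of the Neg ESC libraries. The other genes called higher were *Lipa* at 0.64 (SE 0.12) and *Psap* at 0.59 (SE 0.0385). *Lipa* was not called without Neg ESCs replicate 1 (0.52), and *Psap* lay so near the fold limit that it was not called without replicate 2 of either group (0.57 and 0.58).

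*Atp6v0a2* (chr5:124766641-124801519) is 1 of the alternative a subunits that anchor the pump and set which membranes it acidifies, and it was the 1 subunit called lower in 3×KD ESCs. It stood at 50.3, 56.3 and 55.0 CPM in Neg ESCs and 30.8, 27.6 and 30.8 CPM in 3×KD ESCs. The Neg libraries were all higher, and the change was -0.86 (SE 0.0626, adjusted p = 1.1e-08, edgeR), or 1.82-fold lower. With offsets for transcript length the call was lost in ESCs (-0.51, adjusted p = 0.13, edgeR) and in EpiLCs (-0.63, adjusted p = 0.07, edgeR). *Atp6v0a1*, a further a subunit, was at 0.33 in both states. *Tcirg1*, the a subunit known from osteoclasts, is not among the 39 genes and was called higher in both states (1.01 and 0.79).

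*Gpnmb* fell from 52.2, 49.2 and 55.5 CPM in Neg ESCs to 4.85, 3.96 and 3.98 CPM in 3×KD ESCs, from 2392 to 205 counts in total. This was the largest change of the set in ESCs, at -3.61 (SE 0.147, adjusted p = 1.6e-11, edgeR), or 12.2-fold lower, and no library overlapped. *Mcoln1*, with 42.9, 51.3 and 49.1 CPM in 3×KD ESCs, overlapped its Neg libraries and was at 0.04 (SE 0.0633, adjusted p = 0.64, edgeR).

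**Figure D3:**
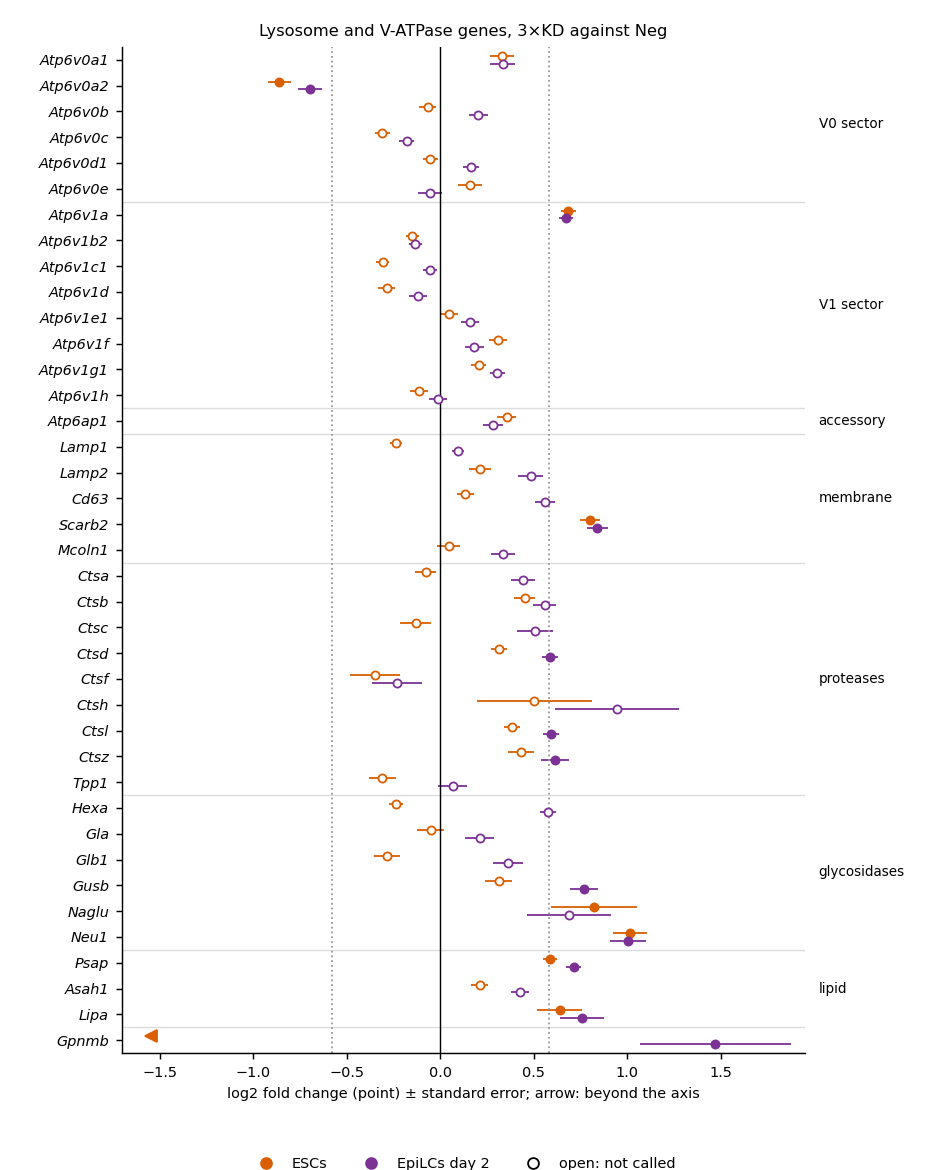
Log2 fold change of each of the 39 genes in 3×KD against Neg (point, with its standard error), in ESCs (orange) and EpiLCs day 2 (purple), ordered by role; filled points were called, dotted lines mark the fold limit of 0.58 and the arrow marks *Gpnmb* in ESCs at -3.61, beyond the axis. *Neu1*, *Scarb2*, *Atp6v1a*, *Psap* and *Lipa* lie right of the limit and *Atp6v0a2* lies left of it in both states, and most soluble enzymes lie further right in EpiLCs than in ESCs.

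In 3×KD EpiLCs more of the set was higher than in Neg EpiLCs, with sialidase, glucuronidase, saposin and cathepsin genes among those called. Of the 39 genes, 10 were called higher (25.6%) and 1 lower (2.56%), beside 7.88% and 5.35% of all genes tested and 12.3% and 8.57% of genes at 1 CPM or more. The median log2 fold change was 0.36, beside 0.03 for all genes tested, and 31 of the 39 were above 0. By the adjusted p alone, 25 were higher and 3 lower, beside 14.3% and 15.6% of all genes tested. Of the 15032 genes at 1 CPM or more, 3487 were higher and 3888 lower by it. The 18 soluble genes had 7 called higher and a median of 0.58, and their sum went from 480.4 ± 9.16 CPM in Neg EpiLCs to 704.0 ± 16.5 CPM in 3×KD EpiLCs (SD, n = 3 each). Summed TPM of these genes lay between 203.9 and 240.9 in Neg EpiLCs and between 245.1 and 333.1 in 3×KD EpiLCs. The 5 membrane proteins had 1 called higher and a median of 0.48, and the 15 pump subunits had 1 called in each direction and a median of 0.16. With offsets for transcript length, which were estimated per library, 6 genes of the set were called rather than 11.

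Genes called higher in both states were *Neu1*, *Scarb2*, *Atp6v1a*, *Psap* and *Lipa*, and *Atp6v0a2* was called lower in both. These are 5 and 1 of 39 genes, beside 4.41% and 2.88% of all genes tested and 7.12% and 4.74% of genes at 1 CPM or more. *Neu1* stood at 10.3, 12.4 and 12.8 CPM in Neg EpiLCs and 25.2, 24.8 and 21.1 CPM in 3×KD EpiLCs. The lowest 3×KD library was well above the highest Neg library, and the change was 1.00 (SE 0.0961, adjusted p = 3e-07, edgeR). *Scarb2* went from 20.9, 24.1 and 23.3 CPM to 39.4, 42.6 and 40.0 CPM, again with no overlap, a change of 0.84 (SE 0.0561, adjusted p = 4.5e-09, edgeR). *Atp6v0a2* went from 42.9, 39.5 and 39.2 CPM to 24.2, 24.2 and 26.4 CPM. All 3×KD libraries were lower, and the change was -0.70 (SE 0.0643, adjusted p = 1.8e-07, edgeR). *Lipa*, *Psap* and *Atp6v1a* were at 0.76, 0.71 and 0.67. With offsets for transcript length *Atp6v1a* was at 0.573 in EpiLCs and was not called.

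*Gusb* went from 18.3, 19.6 and 21.7 CPM in Neg EpiLCs to 34.9, 34.1 and 32.3 CPM in 3×KD EpiLCs. Its groups did not overlap, with a change of 0.77 (SE 0.0738, adjusted p = 3e-07, edgeR), or 1.7-fold. The proteases *Ctsz* at 0.61, *Ctsl* at 0.592 and *Ctsd* at 0.585 were also called in EpiLCs, each close to the fold limit. *Ctsd* was not called without 3×KD EpiLCs replicate 1 (0.54) and *Ctsz* not without 3×KD EpiLCs replicate 3 (0.56). *Ctsl* and *Ctsd* were not called with offsets for transcript length (0.509 and 0.574) or with only the groups compared (0.577 and 0.57). Just under the limit were *Hexa* at 0.577, *Cd63* at 0.56 and *Ctsb* at 0.56. *Mcoln1* had 48.5, 51.2 and 48.3 CPM in 3×KD EpiLCs, above its 3 Neg EpiLC libraries, and the change of 0.34 (SE 0.0637, adjusted p = 0.00042, edgeR) was under the limit.

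*Gpnmb* had 1.49, 0.512 and 0.687 CPM in 3×KD EpiLCs and 0.308, 0.201 and 0.442 CPM in Neg EpiLCs, from 43 and 15 counts in total. The 3×KD libraries were higher, 1 of them by far, and the change was 1.47 (SE 0.403, adjusted p = 0.0077, edgeR). It rested on that library: without 3×KD EpiLCs replicate 1 it was 0.89 (adjusted p = 0.15, edgeR), and the call was lost under 7 of the alternatives, among them leaving out Neg EpiLCs replicate 1 (1.45, adjusted p = 0.027, edgeR) or replicate 2 (1.25, adjusted p = 0.038, edgeR).

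**Figure D4:**
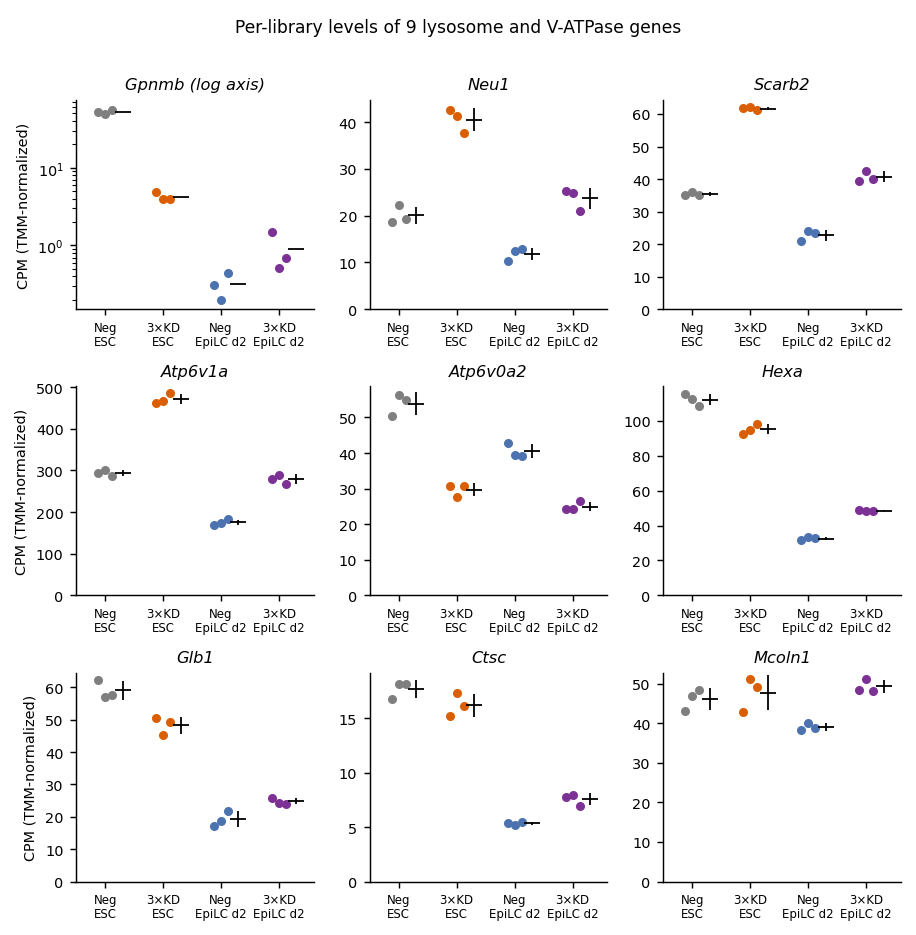
Level of 9 of the genes in each library (point, CPM, TMM-normalized), with the mean ± SD of the 3 libraries of a group (mean only for *Gpnmb*, whose axis is logarithmic). *Neu1*, *Scarb2* and *Atp6v1a* are higher and *Atp6v0a2* lower in 3×KD in both states, while *Hexa* and *Glb1* are lower in 3×KD ESCs and higher in 3×KD EpiLCs than in Neg.

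State markers also differed between 3×KD and Neg. In 3×KD EpiLCs, 5 of the 10 naive markers were called higher and 1 lower than in Neg EpiLCs, with a median log2 fold change of 0.46, and 6 of the 8 formative markers were called lower, with a median of -1.03. In summed levels the naive markers lay between 342.9 and 357.7 CPM in Neg EpiLCs and between 475.8 and 489.5 CPM in 3×KD EpiLCs. The formative markers lay between 3231.5 and 3628.0 CPM in Neg EpiLCs and between 1829.5 and 1895.1 CPM in 3×KD EpiLCs. In 3×KD ESCs, 5 naive markers were called lower and none higher, with a median of -0.58, while the median of the set was 0.13. The set was lower in EpiLCs than in ESCs, and the part of the cells' state in the 3×KD difference was not tested. Of the markers of macrophages, cells rich in lysosomal enzymes and *Gpnmb*, 5 of 8 had enough counts to be tested and none was called in 3×KD against Neg, and their sum lay between 1.28 and 9.1 CPM in every library. Of the 6 fibroblast markers tested, *Pdgfrb* and *Thy1* were called higher in 3×KD in both states, and the summed list lay between 10.6 and 13.9 CPM in Neg ESCs, 31.6 and 32.6 CPM in 3×KD ESCs, 6.76 and 8.32 CPM in Neg EpiLCs and 13.7 and 17.1 CPM in 3×KD EpiLCs. Of 12 primitive endoderm markers, 3 were called higher and none lower in 3×KD ESCs, and 1 higher and 4 lower in 3×KD EpiLCs. Among genes at 1 CPM or more, 13.1% were called higher and 10.5% lower in ESCs, and 12.3% and 8.57% in EpiLCs. In EpiLCs against ESCs, 6 primitive endoderm markers were called higher and 1 lower in Neg, and 3 higher and 3 lower in 3×KD. The macrophage marker *Itgam* was called higher there in both lines, and *Pdgfrb* and *Thy1* lower. Among genes at 1 CPM or more, 13.9% were called higher and 16.7% lower in Neg, and 13.6% and 14.3% in 3×KD. The part of these cell types in the results was not tested.

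The effect of the 3×KD differed between the states for 4 of the 39 genes, all of them more positive in EpiLCs. This was tested as the 3×KD effect in EpiLCs minus that in ESCs, with the same limits. The 4 genes are 10.3% of the set, beside 2.67% of all genes tested and 4.42% of genes at 1 CPM or more, and none was called in the other direction, beside 1.89% of all genes and 3.16% of those at 1 CPM or more. The median of the set was 0.18 and that of all genes tested 0.00, and 33 of the 39 were above 0. The pump had none called and a median of 0.10, and the glycosidases had 2 of 6 called and a median of 0.36. Since the 3×KD effect in EpiLCs and that in ESCs share no library, the values of the 2 states can be set against each other. Both states come from the same 2 lines, so a difference between the lines would enter both.

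*Gpnmb* differed most, by 5.08 (SE 0.428, adjusted p = 4.5e-07, edgeR), from -3.61 in ESCs and 1.47 in EpiLCs, the latter from few counts. *Hexa* differed by 0.81 (SE 0.0574, adjusted p = 5.8e-08, edgeR): it was lower in 3×KD ESCs at -0.24 and higher in 3×KD EpiLCs at 0.58, and the libraries of the 2 lines did not overlap in either state. *Glb1* stood at 62.3, 57.1 and 57.8 CPM in Neg ESCs, 50.4, 45.4 and 49.3 CPM in 3×KD ESCs, 17.2, 18.8 and 21.9 CPM in Neg EpiLCs and 25.9, 24.4 and 24.1 CPM in 3×KD EpiLCs. Its 3×KD libraries were below Neg in ESCs and above Neg in EpiLCs, a difference of 0.65 (SE 0.104, adjusted p = 0.00033, edgeR) that was not called without Neg EpiLCs replicate 1 (0.54). *Ctsc* stood at 15.2, 17.3 and 16.1 CPM in 3×KD ESCs, overlapping Neg, and at 7.82, 7.99 and 6.93 CPM in 3×KD EpiLCs, all above Neg. It differed by 0.64 (SE 0.127, adjusted p = 0.002, edgeR) and was not called without 3×KD ESCs replicate 1 (0.57). *Atp6v1c1*, *Lamp1*, *Cd63*, *Ctsa*, *Ctsd* and *Gusb* also had an adjusted p under 0.01 for the difference, with values between 0.25 and 0.52 under the fold limit. By the adjusted p alone, 10 of the 39 were more positive in EpiLCs and none less, beside 4.76% and 5.27% of all genes tested. Of the 15032 genes at 1 CPM or more, 1195 were more positive and 1336 less by it. *Neu1*, *Scarb2* and *Atp6v1a*, called in both states, had differences of -0.01 (SE 0.133), 0.04 (SE 0.0771) and -0.01 (SE 0.0545) that did not pass the test.

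Genes with and without the promoter E-boxes shown above were among those called. Of the 10 genes with TCACGTG, 1 was called in 3×KD ESCs (*Naglu*), 1 in 3×KD EpiLCs (*Ctsd*) and 1 for the difference between states (*Glb1*), with medians of -0.00, 0.27 and 0.27. Of the 29 genes without it, 7, 10 and 3 were called, with medians of 0.20, 0.44 and 0.17. In EpiLCs against ESCs in Neg the medians were -0.69 with and -0.64 without it. No test was made of these splits.

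Most MiT factors and genes of their nutrient-sensing control were lower in 3×KD, by the adjusted p alone 10 of 11 in ESCs with none higher, and 8 in EpiLCs with *Tfeb* higher. Of the 11 genes of this list, 6 were called lower and none higher in 3×KD ESCs, with a median of -0.59. In 3×KD EpiLCs 1 was called higher and 2 lower, with a median of -0.27. Among genes at 1 CPM or more, 10.5% were called lower and 13.1% higher in ESCs, and 8.57% and 12.3% in EpiLCs. By the adjusted p alone, 3928 of these 15032 genes were lower in ESCs and 3888 in EpiLCs. *Tfe3* was at 71.6, 68.5 and 72.1 CPM in Neg ESCs, 47.1, 49.1 and 51.7 CPM in 3×KD ESCs, 247.6, 220.4 and 231.9 CPM in Neg EpiLCs and 106.4, 110.7 and 104.0 CPM in 3×KD EpiLCs. Its 3×KD libraries were lower in both states, by a log2 fold change of -0.52 in ESCs (not called) and -1.12 (SE 0.0453, adjusted p = 1.8e-11, edgeR) in EpiLCs. Unlike the lysosomal set it was higher in EpiLCs than in ESCs, at 1.72 in Neg and 1.12 in 3×KD. *Tfeb* was at 58.4, 64.5 and 66.9 CPM in Neg ESCs, 52.2, 55.6 and 51.1 CPM in 3×KD ESCs, 9.49, 9.13 and 9.48 CPM in Neg EpiLCs and 16.2, 14.6 and 15.5 CPM in 3×KD EpiLCs. It was low in EpiLCs of both lines (-2.76 and -1.78) and was called higher in 3×KD EpiLCs, at 0.72 (SE 0.0745, adjusted p = 7.3e-07, edgeR). The difference between states was 0.98 for *Tfeb* and -0.60 for *Tfe3*, and both were called.

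*Mitf* fell in 3×KD ESCs, from 33.9, 34.6 and 36.8 CPM to 17.9, 17.3 and 20.0 CPM (-0.93, SE 0.075, adjusted p = 3.4e-08, edgeR), and lay between 3.9 and 4.8 CPM in all EpiLC libraries. *Flcn*, whose product acts on the GTPases RagC and RagD to hold TFE3 and TFEB in the cytosol, went from 77.5, 78.4 and 77.2 CPM in Neg ESCs to 49.1, 52.1 and 49.2 CPM in 3×KD ESCs. All 3×KD libraries were lower, with a change of -0.63 in ESCs and -0.24 (not called) in EpiLCs. Its partner *Fnip2* changed by -0.59 and -0.27 and *Rragc* by -0.63 and -0.24, called in ESCs and not in EpiLCs in each case. *Rragd*, a Rag GTPase that MiT factors are known to induce, went from 119.4, 121.7 and 127.7 CPM to 77.5, 81.5 and 83.2 CPM in ESCs and from 58.5, 49.5 and 54.9 CPM to 26.2, 27.3 and 25.7 CPM in EpiLCs. Its 3×KD libraries were lower in both states, at -0.61 and -1.04, and both were called. RNA levels of these genes do not show where the proteins are in the cell.

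**Figure D5:**
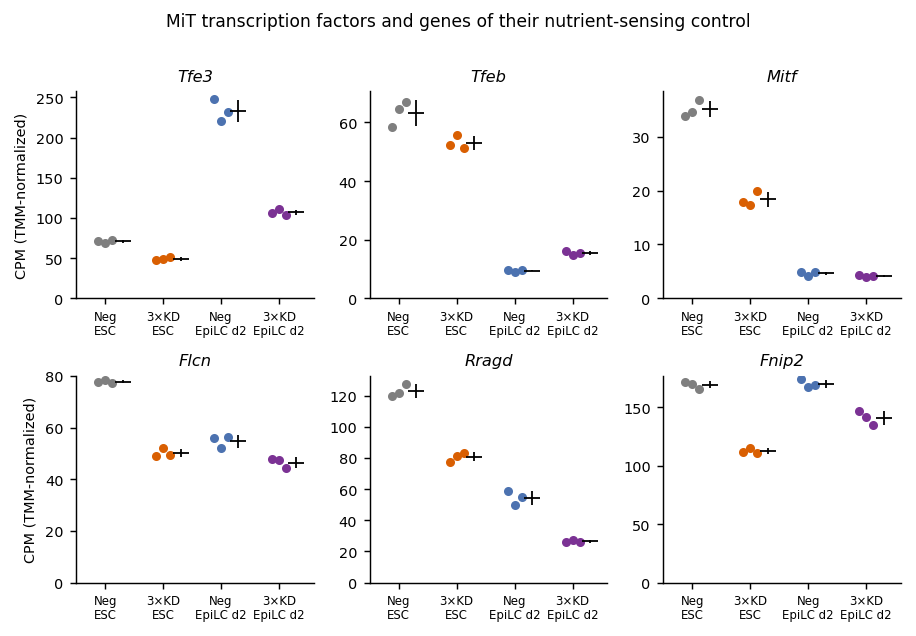
Level of the MiT factor genes *Tfe3*, *Tfeb* and *Mitf* and of *Flcn*, *Rragd* and *Fnip2* in each library (point, CPM, TMM-normalized), with the mean ± SD of the 3 libraries of a group. *Tfe3* is highest in Neg EpiLCs and *Tfeb* and *Mitf* in ESCs, and in both states the 3×KD levels of *Flcn*, *Rragd* and *Fnip2* lie below Neg.

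The other lysosomal genes, outside the 39, were taken from lists of the same roles. Of 36 other lysosomal hydrolases and activators tested, 13 were called higher and 2 lower in 3×KD ESCs and 13 higher and 1 lower in 3×KD EpiLCs, with medians of 0.45 and 0.39. Among genes at 1 CPM or more, 13.1% were called higher and 10.5% lower in ESCs, and 12.3% and 8.57% in EpiLCs. *Arsg*, an arylsulfatase, rose by 1.51 in ESCs, and *Idua*, the alpha-L-iduronidase, by 1.36 in EpiLCs. *Manba*, the beta-mannosidase, went the other way in both states, at -1.93 and -0.62. Of 33 other membrane proteins, channels and transporters, 3 were called higher and 3 lower in ESCs (*Abca2*, a lipid transporter, at 1.14, *Mfsd1* at -0.84) and 4 higher and none lower in EpiLCs. *Litaf*, at 1.42 in EpiLCs, and the V-ATPase assembly factor *Rogdi*, at 0.82 and 1.02, lie on chromosome 16, where the median gene was also higher. Of 16 other V-ATPase subunits and assembly factors tested, 2 were called higher and none lower in each state. In EpiLCs against ESCs in Neg, 10 of the 36 hydrolases were called lower and 3 higher, beside 16.7% and 13.9% of genes at 1 CPM or more. Of the 33 membrane proteins, 14 were called lower and 1 higher there. *Npc2*, the cholesterol carrier of the lumen, was at -1.61.

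Of 20 genes that bring enzymes to lysosomes, 2 were called higher and 1 lower in 3×KD ESCs, and 1 higher and 2 lower in 3×KD EpiLCs, with medians of -0.27 and -0.06. Among genes at 1 CPM or more, 13.1% were called higher and 10.5% lower in ESCs, and 12.3% and 8.57% in EpiLCs. The counts called in this list were near or below those shares. In ESCs 11 were lower and 3 higher by the adjusted p alone, and in EpiLCs 8 were lower and 4 higher. Of the 15032 genes at 1 CPM or more, it put 3928 lower and 3780 higher in ESCs, and 3888 and 3487 in EpiLCs. *Vps39*, a subunit of the HOPS tethering complex, was at 0.96 and the sorting receptor *Sort1* at 0.74 in ESCs, and *Grn*, the precursor of lysosomal granulins, at 0.65 in EpiLCs. *Sumf1*, which activates sulfatases, was called lower in both states (-0.59 and -0.76), and *Vps33a*, also of HOPS, in EpiLCs (-0.65). Of 24 autophagy genes, 2 were called in each direction in each state, again near or below those shares, with medians of -0.24 and -0.08. The adjusted p alone put 13 lower against 3 higher in ESCs, and 10 lower against 5 higher in EpiLCs. *Gabarapl1*, which coats autophagosomes, rose by 1.18 in ESCs and 1.06 in EpiLCs, and *Wipi1*, which binds their precursor membrane, by 0.85 and 1.49. *Atg13* at -0.95 and the kinase *Ulk1* at -0.72, both of the complex that starts autophagy, were lower in 3×KD ESCs, and *Atg16l1* at -0.69 and *Atg7* at -0.64, which serve the lipidation of LC3, in 3×KD EpiLCs.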

How the data were processed

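Transcript tables of 12 libraries were used. Per the labels and the study's methods, ribosomal RNA was depleted (the molecule field gives polyA RNA) and directional single-end reads were trimmed with Trim Galore 0.6.7, mapped to GRCm39 with STAR 2.7.9a and quantified with Salmon 1.10.1. For 149132 transcripts the authors deposited unnormalized estimated counts, and TPM that correct for transcript length and depth. The estimated counts were added up by gene and rounded, and 25446 genes reaching 10 counts over all libraries were tested with edgeR 4.0.16 (R 4.3.3, TMM, quasi-likelihood, 4 groups in one fit, all 12 libraries). Calls needed a Benjamini-Hochberg adjusted p under 0.01 and a log2 fold change above 0.58 in size. Standard errors were taken from the log2 fold change and the square root of its F. TPM served to compare levels between genes, and summed TPM was set beside summed CPM.

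The 39 genes, the lists and the rule for the genes named were chosen with earlier results of these data known. The rule gives values per library for the 4 largest called changes in each direction of a comparison, for *Gpnmb* and *Mcoln1* and for 5 MiT genes, and names up to 2 genes per direction of each other list, of which 1 is not reported here. The cell-type lists were macrophage, fibroblast, primitive endoderm, naive and formative markers. Annotation was matched for 99.0% of genes and 99.9% of counts. The assembly factor *Vma22* was not found by that symbol. The scripts were tested on simulated data. Alternatives were DESeq2 1.42.0, other scalings and filters, transcript-length offsets, a replicate block, robust fitting, only the groups compared, looser limits and each library left out.

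Same-numbered libraries of different groups had correlations of their deviations between -0.135 and 0.1, and differently numbered ones between -0.146 and 0.181. No shared effect of the number was seen, and these values cannot show whether same-numbered libraries were cultured together. The counts of replicates were further apart than sampling noise, with chi-square from 2.84 to 16.4 per degree of freedom.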

Additional observations from a re-analysis of the deposited data

Results flagged for a closer look

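For 4 of the 39 genes the effect of the 3×KD differed between ESCs and EpiLCs, by the test of that difference itself (edgeR's quasi-likelihood test, Benjamini-Hochberg adjusted). On the log2 scale the effect in EpiLCs minus that in ESCs was 5.08 for *Gpnmb* (adjusted p = 4.5e-07), 0.81 for *Hexa* (adjusted p = 5.8e-08), 0.65 for *Glb1* (adjusted p = 0.00033) and 0.64 for *Ctsc* (adjusted p = 0.002). *Gpnmb* in EpiLCs rests on 43 counts in 3×KD and 15 in Neg.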

How the results depend on the processing

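No called value of the 39 genes changed sign under the alternatives run: of the recomputed values of called genes, 1331 kept their side of the limits and 68 lost their call. For 3×KD against Neg in ESCs, the median of the set was 0.10 with transcript-length offsets, and 28 genes were past an adjusted p of 0.05 with no fold limit. In EpiLCs the median was 0.42 with library size alone and 0.46 with transcript-length offsets, which called 6 genes, and 32 were past the looser limit. For EpiLCs against ESCs in Neg the median was -0.62 with DESeq2, -0.61 with RLE factors, -0.55 with upper-quartile factors, -0.67 with library size alone and -0.62 with length offsets, and 34 were past the looser limit. In 3×KD these medians were -0.44, -0.44, -0.40, -0.43 and -0.50, and -0.45 with no filter, with 32 past the looser limit. For the difference between states the median was 0.26 with library size alone and 0.11 with length offsets, which called 2 genes, and 17 were past the looser limit. Other scalings moved the median of all genes by at most 0.082.

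Leaving out 1 library in turn gave 6 to 8 genes called in ESCs, 10 to 13 in EpiLCs, 20 to 22 for the states in Neg, 15 to 17 in 3×KD and 3 to 4 for the difference. The medians lay between 0.11 and 0.16, 0.32 and 0.43, -0.64 and -0.59, -0.50 and -0.44, and 0.15 and 0.22. Fits of only the groups compared called 6 genes in ESCs and 8 in EpiLCs. With the replicate number as a block, 7 genes were called in ESCs, where *Naglu* lost its call (adjusted p = 0.015, edgeR), and 11, 22, 16 and 4 in the other comparisons. Same-numbered libraries had a median correlation of -0.012, and 1 of 12 libraries correlated best with its own number. *Scarb2* in EpiLCs against ESCs of 3×KD lost its call under 7 alternatives, *Atp6v0c* in Neg under 7 and *Atp6v1d* in Neg under 6, all near the fold limit. *Hexa* in 3×KD EpiLCs gained one under 9. *Mcoln1*, not called, changed sign from 0.04 to -0.00 without Neg ESCs replicate 1 and to -0.01 without 3×KD ESCs replicate 2 in 3×KD against Neg ESCs, and from 0.05 to -0.01 without 3×KD ESCs replicate 1 in EpiLCs against ESCs of 3×KD. Depth limits *Gpnmb* in EpiLCs, *Naglu* and *Ctsh*.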
